A study of Mus musculus with 4 samples.

Results

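The Spata (spermatogenesis associated) and Tex (testis expressed) genes were followed in adult mouse testes lacking Fam46c. Their members were all symbols of the deposited expression tables that begin with Spata or Tex and continue with a digit, 35 of 22552 symbols, of which 17 are Spata and 18 are Tex genes. A further 2 symbols of this form were not analysed here. The testes came from adult males of a DBA/C57 F1 background. The tested animals were labelled Fam46c KO (2 libraries) and the controls WT (2 libraries), with no treatment named for either genotype. The labels give neither the part of Fam46c that was removed nor whether the libraries of a genotype came from separate animals, so every p-value below reflects only how much these 4 libraries vary, and that variation may be technical.

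Spermatogenesis turns dividing spermatogonia into meiotic spermatocytes, round spermatids and finally sperm with a condensed head, an acrosome and a flagellum. Spata and Tex are names given for a transcript's presence in testis and not for shared ancestry, so the members take part in unrelated steps of this path, among them meiotic recombination, the bridges between germ cells, the acrosome and the sperm mitochondria. Others, grouped here as broadly expressed, are also used outside the testis. The FAM46C protein belongs to the noncanonical poly(A) polymerases, which add adenosines to the ends of RNA, and the design compares transcript levels in testes labelled as lacking and as having it.

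Levels are FPKM, fragment numbers scaled for transcript length and library size. Whole-fragment steps in the low values put the libraries at 0.781, 0.905, 0.901 and 1 of the depth of WT replicate 2 for KO replicates 1 and 2 and WT replicates 1 and 2. Absolute depth was estimated from the size of these steps, and in KO replicate 1, the shallowest library, a 1 kb transcript at 1 FPKM corresponded to about 17.6 fragments. The targeted transcript, Fam46c, stood at 131 and 129.9 FPKM in the KO libraries, against 236 and 134 FPKM in the WT libraries, and limma gave it a log2 fold change of -0.45 (SE 0.21, adjusted p = 1.00). WT replicate 1 alone was clearly higher, and since the deleted part is not given, this level does not check the labels. Germ cell markers were abundant in all libraries, with sums over 13 genes of 71645 and 58194 FPKM in KO and 50545 and 64834 FPKM in WT. These sums rest mainly on the highest genes: over the 4 libraries Prm1 averaged 19638 FPKM and the lowest, Dazl, 45.8 FPKM. All 7 epididymal markers lay under 1 FPKM in each library. Of 6 Leydig cell markers, Insl3 and Hsd3b6 lay lower in both KO libraries and the other 4 overlapped. Of all tested genes, 10.6% lay lower in both KO libraries. Insl3 stood at 379 and 189 FPKM in KO, against 1099.6 and 1136 FPKM in WT, and without it the list summed to 231 and 102 FPKM in KO, against 159 and 240.3 FPKM in WT, which overlap. Red blood cell markers summed to 12.6 and 8.73 FPKM in KO, against 50.6 and 40.7 FPKM in WT, with 3 of 6 genes lower in both KO libraries. Of the others, Alas2 overlapped, and Hba-a2 and Hbb-b1, averaging 0.31 and 7.0e-05 FPKM over the 4 libraries, lay higher in both KO libraries. Limma called Insl3 (adjusted p = 0.0051), Hba-a1 (adjusted p = 3.8e-06) and Beta-s (adjusted p = 1.3e-05) lower in KO. Also lower in both KO libraries were 2 of 5 macrophage, 1 of 7 Sertoli and 1 of 5 peritubular and endothelial markers. Another 1 of the last 5 lay higher. The part of these differences in the values below was not tested.

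The members covered a wide range of levels. By WT mean they ran from 921 FPKM for Spata4 to 0.98 FPKM for Spata13, a ratio of 941. Above 100 FPKM stood 13 of the 35 members, or 37.1%, against 8.05% of the 12258 genes that averaged at least 1 FPKM and were tested. Another 13 members lay between 10 and 100 FPKM, 8 between 1 and 10 and 1 under 1 FPKM. The 6 highest, all Spata genes, made up 68.7% of the members' summed level. Together the members took 1.08% and 1.12% of all FPKM in the KO libraries, against 1.07% and 1.11% in the WT libraries. Their order was stable: 12 members held the same rank in all 4 libraries, 29 moved by at most 1 place, and no member moved by more than 3 places.

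**Figure D1:**
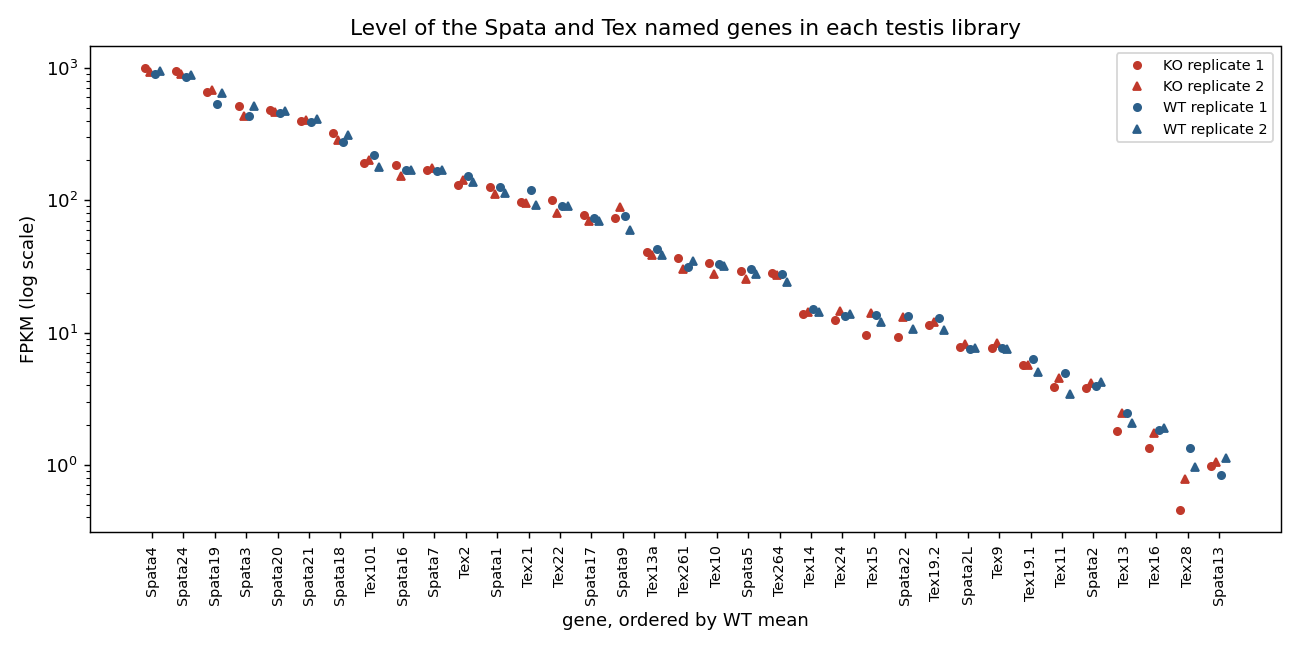
FPKM (log scale) of the 35 Spata and Tex named genes in each library, ordered from left to right by WT mean, with KO libraries in red and WT libraries in blue (circles replicate 1, triangles replicate 2). The 4 points of a gene lie close together beside the range of levels, from 921 FPKM in WT for Spata4 down to 0.98 FPKM for Spata13.

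No member was called different between Fam46c KO and WT testes. On log2(FPKM + 1) values, limma with Benjamini-Hochberg adjustment called 0 of the 34 tested members, against 0.114% of all tested genes (14 of 12258, 3 higher and 11 lower in KO). At an unadjusted p under 0.05 there were 0 members, against 2.02% of all tested genes. The median log2 fold change was 0.0025 over the members and -0.0065 over all tested genes, and 19 members had a positive and 15 a negative value. These signs lay close to 0: scaling to total FPKM, which moved the median of all tested genes to -0.034, moved the members' median to -0.028. Log2 fold changes ran from -0.17 for Tex16 to 0.25 for Spata9, and limma's 95% intervals from -0.53 to 0.59 over all 34 members. Each of the 34 intervals therefore lay inside a 2-fold change in either direction. In bulk testis RNA, fewer cells of a type and less RNA per cell cannot be told apart.

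**Figure D2:**
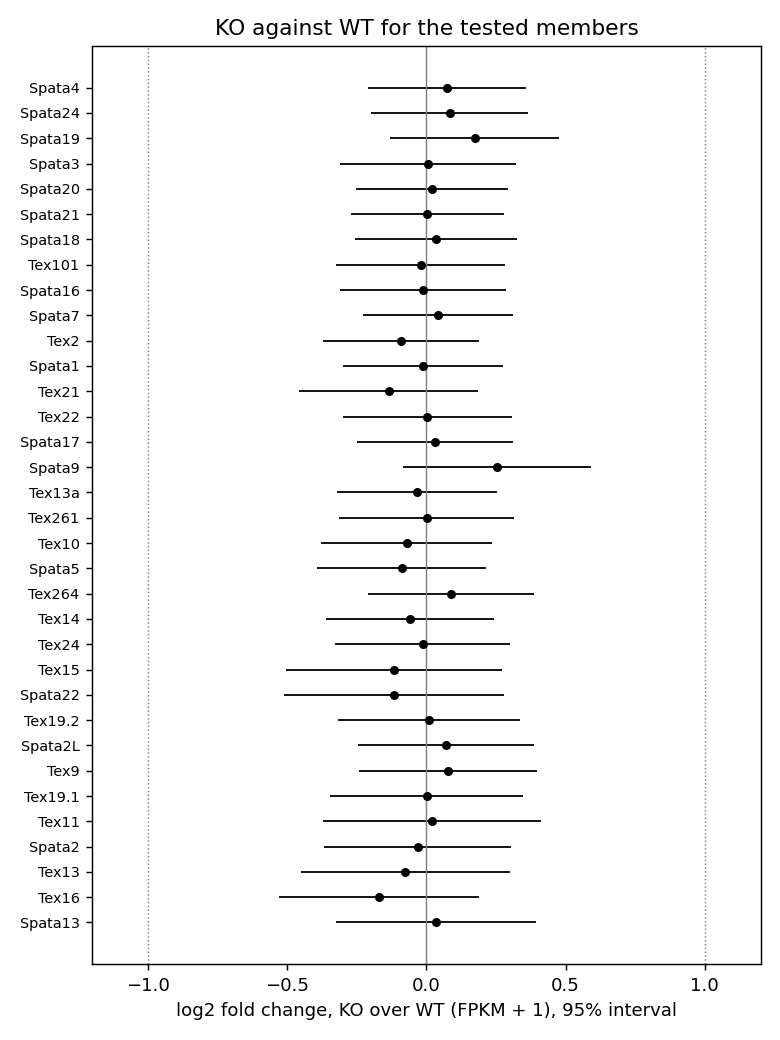
Log2 fold change of FPKM + 1, KO over WT, for the 34 tested members (points) with limma's 95% intervals (bars), ordered by WT mean from the top, with dotted lines at 2-fold. Every interval crosses 0 and stays inside the dotted lines.

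Values that did not overlap between genotypes occurred at a share near that of all genes when both directions were pooled. Both KO libraries lay above both WT libraries for 5 tested members, Spata24, Spata19, Spata7, Spata2L and Tex9, or 14.7% of 34, against 9.47% of all tested genes. Both lay below for 1 tested member, Tex16, or 2.94%, against 10.6%. In either direction this was 6 of 34 members, or 17.6%, against 20.1% of all tested genes. A difference between genotypes larger than both differences within a genotype was found for 1 of the 34, Spata2L, against 11.8% of all tested genes. No member was 1.5-fold apart in the mean of FPKM + 1, against 0.677% of all tested genes.

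The most abundant members are testis genes whose roles are less settled. Spata4 stood at 999 and 941 FPKM in KO, against 895 and 948 FPKM in WT (log2 fold change 0.07, SE 0.13, limma adjusted p = 1.00). Spata24, whose protein binds a testis relative of the TATA-binding protein, was at 951 and 896 FPKM in KO, against 859.9 and 881 FPKM in WT (log2 fold change 0.08, SE 0.13). The groups overlapped for Spata4 and stood apart for Spata24, and in both cases the genotype difference was smaller than the larger within-genotype difference. Spata3 showed large differences within each genotype, with 515 and 435 FPKM in KO, against 432 and 515 FPKM in WT. The means of Spata3 were 475 ± 56.8 FPKM in KO and 473 ± 58.6 FPKM in WT (SD, n = 2 each). Spata20, which encodes a thioredoxin-like protein, was at 479 and 464 FPKM in KO, against 457 and 474 FPKM in WT. Both genotypes gave overlapping values for it, as they did for Spata21, an EF-hand gene, at 398 and 404 FPKM in KO, against 389 and 411 FPKM in WT.

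Spata9 and Tex21 gave the widest spreads among the other testis members of less settled role. Spata9 was at 73.0 and 89.4 FPKM in KO, against 76.2 and 59.9 FPKM in WT. Its log2 fold change of 0.25 (SE 0.15, 95% interval -0.08 to 0.59, limma adjusted p = 1.00) was the highest of the members, and its groups overlapped. Tex21 stood at 96.3 and 94.7 FPKM in KO, against 120.0 and 91.8 FPKM in WT, a log2 fold change of -0.14 (SE 0.15). The lower KO mean of Tex21 rested on WT replicate 1, the highest of its 4 libraries. Tex9 was at 7.68 and 8.35 FPKM in KO, against 7.63 and 7.46 FPKM in WT (log2 fold change 0.08, SE 0.15), and Tex24 averaged 13.5 ± 1.47 FPKM in KO and 13.6 ± 0.34 FPKM in WT (SD, n = 2 each).

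Genes of the sperm mitochondria and tail were also high. Spata19, or spergen-1, a protein of sperm mitochondria that male mice need for fertility, was at 660.4 and 677 FPKM in KO, against 538 and 652 FPKM in WT. Its log2 fold change was 0.17 (SE 0.14, 95% interval -0.13 to 0.48, limma adjusted p = 1.00). The KO libraries lay above both WT libraries, but the distance from WT replicate 2 was small, and the WT libraries differed from each other by 0.28 on the log2 scale. Spata18, also called Mieap, a factor of mitochondrial quality control, was at 320 and 284 FPKM in KO, against 278 and 312 FPKM in WT. Spata17, an IQ-motif gene, was at 77.2 and 69.7 FPKM in KO, against 73.8 and 69.9 FPKM in WT. The genotypes overlapped for Spata18 and Spata17.

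Members of the acrosome and sperm surface had WT means between 89.9 and 200.4 FPKM. None of the 4 had separate genotypes, where 20.1% of all tested genes did. Tex101 encodes a glycosylphosphatidylinositol-anchored germ cell surface protein needed for the maturation of ADAM3 and for male fertility. Its level was 190.3 and 203 FPKM in KO, against 221 and 179.6 FPKM in WT (log2 fold change -0.02, SE 0.14). Spata16, a Golgi protein linked to acrosome formation and to round-headed sperm, was at 186 and 152 FPKM in KO, against 169 and 169 FPKM in WT. Tex22 showed the same wide KO and narrow WT spread, with 101 and 80.7 FPKM in KO, against 89.7 and 90.2 FPKM in WT. Spata1, described as an acrosomal protein, was at 127 and 111 FPKM in KO, against 125 and 114 FPKM in WT.

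Meiotic and genome defence members, as regrouped here, were much lower, between 4.18 and 12.8 FPKM by WT mean. Spata5 and Tex16, which the group held before, had WT means of 29.0 and 1.85 FPKM. For each member of the regrouped set the genotype difference was smaller than the larger within-genotype difference. Most tested genes were alike in this, since the genotype difference exceeded both within-genotype differences in only 11.8% of them. Tex15, which acts in repair of meiotic DNA breaks and in silencing of transposons, was at 9.65 and 14.1 FPKM in KO, against 13.6 and 12.0 FPKM in WT (log2 fold change -0.12, SE 0.18, limma adjusted p = 1.00). Spata22, a partner of MEIOB in meiotic recombination, was at 9.18 and 13.0 FPKM in KO, against 13.4 and 10.7 FPKM in WT (log2 fold change -0.12, SE 0.18). Tex11, an X-linked gene of crossover formation, was at 3.85 and 4.57 FPKM in KO, against 4.92 and 3.45 FPKM in WT (log2 fold change 0.02, SE 0.18). Every one of these had its low KO value in replicate 1 and its low WT value in replicate 2. The neighbouring paralogs Tex19.1 and Tex19.2, of which Tex19.1 restrains retrotransposons in the mouse germline, averaged 5.66 ± 0.0015 and 11.7 ± 0.41 FPKM in KO, and 5.68 ± 0.87 and 11.7 ± 1.65 FPKM in WT (SD, n = 2 each). The sources used here do not give how fragments shared by such copies were divided, so both values are uncertain. Tex14, which encodes a component of the bridges that join germ cells, was at 13.7 and 14.4 FPKM in KO, against 15.1 and 14.2 FPKM in WT.

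Differences between libraries of 1 genotype took the same directions among the members about as often as among all genes. KO replicate 2 exceeded KO replicate 1 while WT replicate 1 exceeded WT replicate 2 for 11 of the 35 members, or 31.4%, against 31.0% of all tested genes. These 11 include 4 of the 5 meiotic and genome defence members, a hand-made group too small to set apart from the others. Before the roles were regrouped, this group also held Spata5 and Tex16, and neither showed the pattern. Spata5 was at 29.3 and 25.2 FPKM in KO replicates 1 and 2, and Tex16 at 1.82 and 1.88 FPKM in WT replicates 1 and 2. Tex19.1 was the exception among the 5, with KO values of 5.66 and 5.65 FPKM. On the log2 scale, KO replicate 2 lay above KO replicate 1 by 0.51 for Tex15, 0.47 for Spata22 and 0.20 for Tex11. The opposite pattern, KO replicate 2 below KO replicate 1 and WT replicate 1 below WT replicate 2, was shown by 8 of the 35 members, or 22.9%, among them Spata4, Spata24, Spata3, Spata20 and Spata18, against 19.3% of all tested genes. The median absolute difference between replicates was 0.11 in KO and 0.14 in WT for the tested members, against 0.16 and 0.14 for all tested genes. The median absolute difference between genotypes was 0.038 for the members and 0.071 for all tested genes. It compares means of 2 libraries, which vary less than single libraries, so it is not set against the replicate values. Among the germ cell markers, Sycp1, a synaptonemal complex gene, stood at 45.2 and 53.4 FPKM in KO, against 60.3 and 47.0 FPKM in WT. Sycp3, of the same complex, was at 178 and 158 FPKM in KO, against 176 and 160.1 FPKM in WT. Tnp1, which encodes a transition protein of late spermatids, was at 16319.7 and 13439.9 FPKM in KO, against 9507 and 13716 FPKM in WT. Tnp2, Prm1 and Prm2 took the directions of Tnp1. Acrv1 took those of Sycp1, at 172 and 214 FPKM in KO, against 214 and 170 FPKM in WT. Odf1 took those of Sycp3, at 1322 and 1141 FPKM in KO, against 1514 and 1393 FPKM in WT. The part of these markers in the members' differences was not tested.

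**Figure D3:**
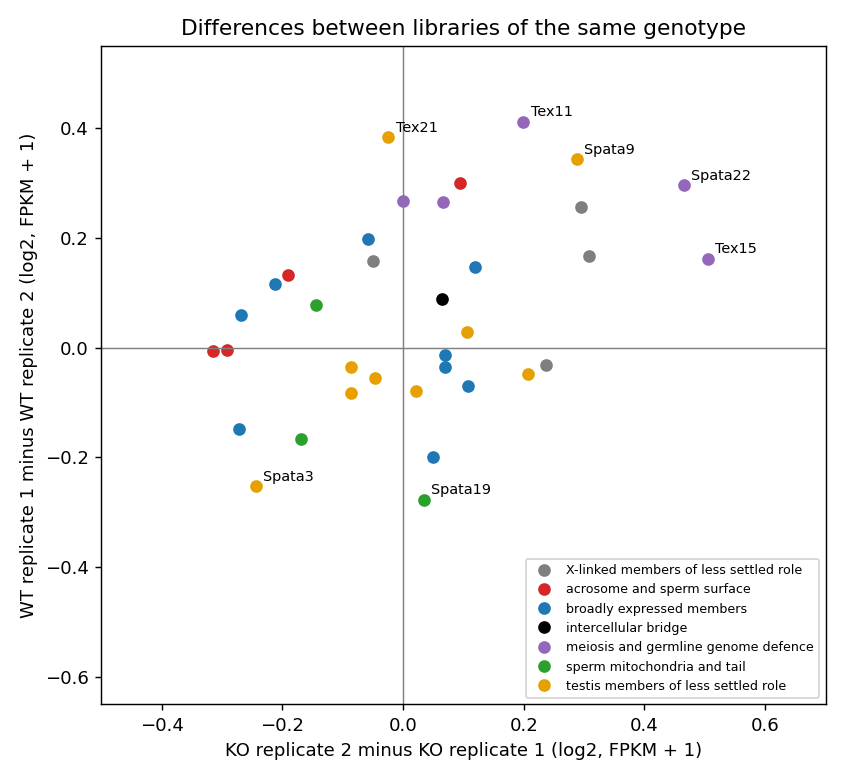
Log2 difference of FPKM + 1 between libraries of the same genotype for each of the 35 members, KO replicate 2 minus KO replicate 1 on the horizontal axis and WT replicate 1 minus WT replicate 2 on the vertical axis, coloured by role. Tex15, Spata22 and Tex11 lie in the upper right and Spata3 in the lower left.

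Members on the X chromosome were low apart from 1. Tex11, Tex13, Tex13a, Tex16 and Tex28 are X-linked in RefSeq's GRCm38.p6 annotation, and Tex13a, a relative of Tex13, stood highest of them at 40.3 and 38.9 FPKM in KO, against 42.8 and 38.3 FPKM in WT. Tex16 was at 1.33 and 1.75 FPKM in KO, against 1.82 and 1.88 FPKM in WT, a log2 fold change of -0.17 (SE 0.16, 95% interval -0.53 to 0.19, limma adjusted p = 1.00). Tex28 was the 1 member that averaged under 1 FPKM over the 4 libraries and was not tested, with 0.45 and 0.78 FPKM in KO, against 1.34 and 0.96 FPKM in WT. Both KO values lay below both WT values for Tex16 and Tex28. In KO replicate 1 the counting error of a 1 kb transcript was 23.9% at 1 FPKM and 2.39% at 100 FPKM. With no filter on low values, Tex28 had a log2 fold change of -0.41 (unadjusted p = 0.043, limma adjusted p = 1.00). The share of all genes with such an unadjusted p in that setting is not given here. With KO replicate 1 left out, the log2 fold change of Tex28 was -0.26. Tex13 overlapped between genotypes, with 1.79 and 2.45 FPKM in KO, against 2.46 and 2.08 FPKM in WT.

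Broadly expressed members lay between 0.98 and 167 FPKM by WT mean, and 2 of the 9 did not overlap between genotypes, or 22.2%, against 20.1% of all tested genes. Spata7, a protein of the photoreceptor connecting cilium, was the highest, at 168 and 177 FPKM in KO, against 167 and 168 FPKM in WT (log2 fold change 0.04, SE 0.12). Spata2L, a relative of Spata2, was the other whose groups stood apart, at 7.77 and 8.21 FPKM in KO, against 7.45 and 7.66 FPKM in WT (log2 fold change 0.07, SE 0.14). Spata2, an adaptor of the deubiquitinase CYLD in tumour necrosis factor signalling, was at 3.78 and 4.15 FPKM in KO, against 3.95 and 4.19 FPKM in WT. Tex2, a lipid transfer protein of the endoplasmic reticulum, was at 131 and 142 FPKM in KO, against 153 and 138 FPKM in WT (log2 fold change -0.09, SE 0.13). For Tex2 the lowest library was KO replicate 1 and the highest WT replicate 1. The ATPase gene Spata5, of ribosome maturation, was at 29.3 and 25.2 FPKM in KO, against 30.2 and 27.8 FPKM in WT (log2 fold change -0.09, SE 0.14). Tex264, a receptor for autophagy of the endoplasmic reticulum, was at 28.3 and 27.1 FPKM in KO, against 27.9 and 24.2 FPKM in WT (log2 fold change 0.09, SE 0.14). Except for Spata2L, each of these had a genotype difference smaller than its larger within-genotype difference. Of all tested genes, 11.8% exceeded both within-genotype differences. Tex10, of the ribosome-processing PELP1 complex, averaged 30.8 ± 4.17 FPKM in KO and 32.2 ± 0.96 FPKM in WT, Tex261 33.3 ± 4.55 FPKM in KO and 33.2 ± 2.47 FPKM in WT, and Spata13 1.02 ± 0.05 FPKM in KO and 0.98 ± 0.19 FPKM in WT (SD, n = 2 each).

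Among genes listed as partners of Spata and Tex proteins, no gene was called either. The list held 36 genes, among them CatSper channel subunits, bridge partners of TEX14 and the CYLD pathway of SPATA2. It was drawn up for a longer set of Spata and Tex names. Some entries, such as the CatSper and calcineurin genes, have no stated partner among the members. Of the 36 genes, 33 were in the tables and 32 were tested. Limma called 0 of them, against 0.114% of all tested genes, and 0 had an unadjusted p under 0.05, against 2.02%, with a median log2 fold change of 0.0030. The lowest p among positive values belonged to Rnf31, a ubiquitin ligase of the SPATA2 pathway, at 2.50 and 2.26 FPKM in KO, against 1.96 and 1.95 FPKM in WT (log2 fold change 0.19, SE 0.16, limma adjusted p = 1.00). Cep55, a bridge partner of TEX14, was at 11.7 and 10.8 FPKM in KO, against 9.84 and 10.5 FPKM in WT, and Catsper3 averaged 40.1 ± 1.59 FPKM in KO and 36.8 ± 8.77 FPKM in WT (SD, n = 2 each). The lowest p among negative values belonged to Ly6k, which works with TEX101 in ADAM3 maturation, at 169 and 138 FPKM in KO, against 181 and 156 FPKM in WT. Rpa1, a single-strand DNA-binding protein that works with SPATA22 and MEIOB, averaged 66.3 ± 17.0 FPKM in KO and 70.0 ± 4.17 FPKM in WT, and the sperm calcineurin gene Ppp3cc averaged 95.9 ± 7.47 FPKM in KO and 101 ± 4.70 FPKM in WT (SD, n = 2 each). Both KO libraries lay above both WT libraries for Rnf31 and Cep55, 2 of the 32 tested partners, or 6.25%, against 9.47% of all tested genes.

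The promoters of the members differed in base composition. RefSeq promoter windows, 250 bases before to 50 after a gene's start in GRCm38.p6, were matched for 28 of the 35 members, and where a gene had more than 1 window the one richest in CG dinucleotides was counted. Spata3, Spata4 and Spata9 stood under other roles before the regrouping. Fewer than 10 CG dinucleotides were found in 6 of the 7 testis members of less settled role with a window, and in 0 of the 8 broadly expressed members. The other roles lay at or between these: 2 of 3 X-linked members, and 1 of 3 in each of the acrosome, meiotic and mitochondrial groups. The single bridge member, Tex14, had 20. Over the members this was 11 of 28, or 39.3%, against 54.2% of 27025 genes with a window, tested here or not. Among members above 100 FPKM by WT mean it was 7 of 12, and among the others 4 of 16. The windows below show this range, from the highest member (Spata4) and the member of highest log2 fold change (Spata9) to a CG-rich broadly expressed gene (Tex2), and the contrast of the neighbouring paralogs Tex19.1 and Tex19.2. Each is printed 5′ to 3′ on the strand of its gene, with CG dinucleotides in capitals.
Spata4 (GRCm38.p6, chr8:54600531-54600830, plus strand): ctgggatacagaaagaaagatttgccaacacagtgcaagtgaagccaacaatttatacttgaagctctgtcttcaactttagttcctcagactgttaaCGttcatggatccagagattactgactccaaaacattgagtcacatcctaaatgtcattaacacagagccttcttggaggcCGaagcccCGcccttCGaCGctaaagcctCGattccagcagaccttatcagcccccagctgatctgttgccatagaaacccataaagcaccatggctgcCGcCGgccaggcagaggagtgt
Spata9 (GRCm38.p6, chr13:75967489-75967788, plus strand): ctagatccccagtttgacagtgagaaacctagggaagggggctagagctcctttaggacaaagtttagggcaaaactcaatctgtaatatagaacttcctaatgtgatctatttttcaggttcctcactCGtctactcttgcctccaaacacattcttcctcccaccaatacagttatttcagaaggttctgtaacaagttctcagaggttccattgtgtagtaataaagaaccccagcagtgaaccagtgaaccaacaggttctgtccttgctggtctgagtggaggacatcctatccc
Tex2 (GRCm38.p6, chr11:106612881-106613180, minus strand): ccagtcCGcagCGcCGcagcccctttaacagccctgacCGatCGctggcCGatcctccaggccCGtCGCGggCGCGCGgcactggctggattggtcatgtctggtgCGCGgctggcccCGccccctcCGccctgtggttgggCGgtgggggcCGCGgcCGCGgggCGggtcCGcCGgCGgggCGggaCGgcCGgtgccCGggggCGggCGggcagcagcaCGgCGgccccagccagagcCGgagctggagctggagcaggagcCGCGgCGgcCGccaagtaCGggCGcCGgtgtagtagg
Tex19.1 (GRCm38.p6, chr11:121145893-121146192, plus strand): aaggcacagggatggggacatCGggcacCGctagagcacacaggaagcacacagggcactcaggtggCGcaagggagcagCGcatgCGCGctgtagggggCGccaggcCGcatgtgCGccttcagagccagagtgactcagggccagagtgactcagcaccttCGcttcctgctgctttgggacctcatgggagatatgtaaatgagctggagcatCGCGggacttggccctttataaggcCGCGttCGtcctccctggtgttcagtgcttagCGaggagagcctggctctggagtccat
Tex19.2 (GRCm38.p6, chr11:121118628-121118927, minus strand): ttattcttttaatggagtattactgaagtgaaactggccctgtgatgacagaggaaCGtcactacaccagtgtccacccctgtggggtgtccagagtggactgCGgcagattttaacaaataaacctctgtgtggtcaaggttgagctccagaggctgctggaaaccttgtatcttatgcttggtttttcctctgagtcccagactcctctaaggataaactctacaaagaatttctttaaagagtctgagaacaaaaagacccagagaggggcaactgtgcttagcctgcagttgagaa
The windows hold 8 CG dinucleotides in Spata4, 1 in Spata9, 41 in Tex2, 16 in Tex19.1 and 2 in Tex19.2, beside WT means of 921, 68.1, 146, 5.68 and 11.7 FPKM.

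**Figure D4:**
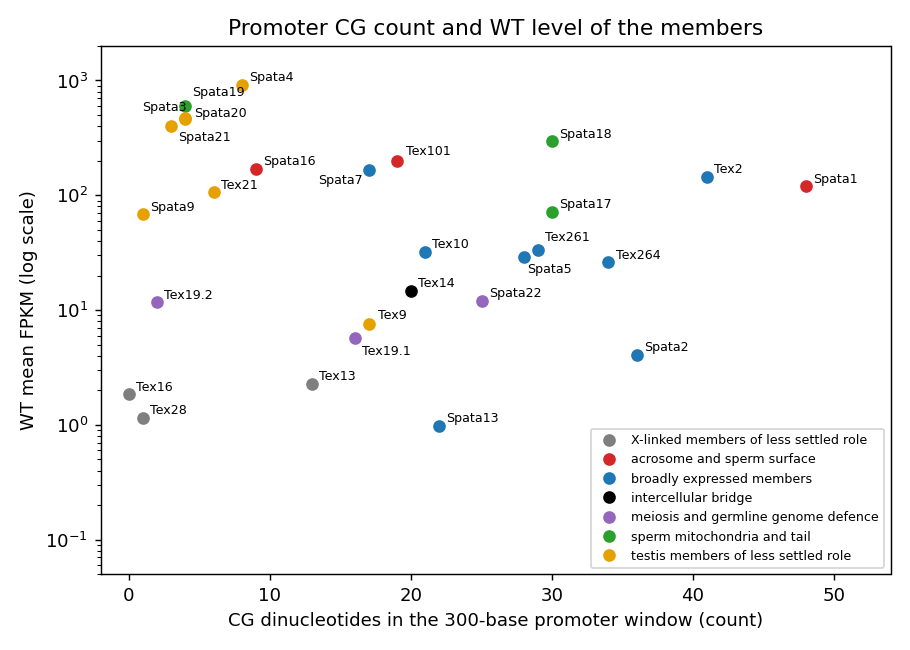
Count of CG dinucleotides in the promoter window (horizontal axis) and WT mean FPKM (vertical axis, log scale) of the 28 members with a RefSeq window, coloured by role. Spata4, Spata19, Spata3, Spata20 and Spata21 combine high levels with fewer than 10 CG dinucleotides, while Tex2 and Spata1 exceed 100 FPKM with 41 and 48.

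Motifs of factors known for spermatid genes were found in 1 to 6 of the 28 windows. The cAMP response element TGACGTCA is bound by CREM, which drives many spermatid genes. It was in the window of 1 of 28 members, Spata7, or 3.57%, against 2.03% of all genes with a window, tested here or not. Its shorter core TGACG, which TGACGTCA contains, was in 6 of 28 members, or 21.4%, against 23.0%. The core GTTGCC of the X-box, bound by RFX factors, was in 3 of 28, Spata4, Tex9 and Tex19.2, or 10.7%, against 14.1%. Both strands were searched. At the other end of the transcript, the poly(A) signal AATAAA stood in the last 40 bases of the longest protein-coding GENCODE M21 transcript for 20 of the 35 members, or 57.1%, against 62.4% of 10453 matched tested genes. The variant ATTAAA without AATAAA was found for 5 members, or 14.3%, against 14.9%. Neither hexamer was found for 10 members, or 28.6%, against 22.7%, among them Spata24, Spata3, Spata18 and Tex101.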

How the data were processed

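Testis RNA of 2 KO and 2 WT libraries was measured as 1 table per library. The deposited values are FPKM per gene symbol, per the file headers. Per the submitters' processing notes, which give no order, the tools and build were TopHat2 2.0.6, Cufflinks 2.0.2, Cuffdiff and mm9. The sources used here do not give the strand setting, the annotation or the treatment of multiply mapping fragments, so close paralogs and overlapping genes are uncertain. FPKM of the 259 symbols on more than 1 row (0 members) were summed.

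Genes averaging at least 1 FPKM over the 4 libraries (12258) were compared on log2(FPKM + 1), a scale that understates changes of low genes, with limma 3.58.1 in R 4.3.3 (intensity trend, two-sided, Benjamini-Hochberg over all tested genes, threshold 0.05), with 2 residual and 9.48 prior degrees of freedom. With 2 against 2 libraries the smallest two-sided exact permutation p is 0.333. The fit was tested on simulated data. Members and lists were chosen with earlier results of these data known, and the roles were regrouped by hand. Named in full were the 15 members of highest WT mean, the 6 of smallest p in each direction, the 4 of widest within-genotype range and, of the partners, 3 in each direction. Relative depth came from ratios of low values, absolute depth from the step size and GENCODE M21 length (less 0 or 200 bases) of 391 genes with 1 transcript. Reference tables are GRCm38.p6 and were used by symbol, because the files' build differs.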

Additional observations from a re-analysis of the deposited data

How the results depend on the processing

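Limma called 0 members under each of the 14 alternatives run, with a smallest adjusted p of 0.895. The count over all tested genes, 14 as reported, was 2 with no filter, 9 at a mean of at least 5 FPKM, 6 after median scaling, 7 after total scaling, 6 after quantile normalization and 8 with robust variance, and 9 to 21 with 1 library left out. With the replicate block it was 68, but the replicate numbers share no stated litter or day, the deviations of WT and KO replicate 1 from their group means correlated at -0.025 over tested genes, and with 2 pairs the block is not shown to pair the libraries. The 6 non-overlapping members became 4 after median scaling, 3 after total scaling and 2 after quantile normalization. They became 17 to 24 with 1 library left out, where a single value stands for a genotype. The median of the members was -0.028 after total scaling, with -0.034 over all genes, and ran from -0.0094 to 0.019 with 1 library left out.

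Of 322 log2 fold changes of 24 named members under the alternatives, 287 kept their direction and 0 were called. After total scaling the values turned to -0.026 for Spata3, -0.013 for Spata20, -0.028 for Spata21, -0.028 for Tex22, -0.0022 for Spata17 and -0.0062 for Tex11, and after quantile normalization to -0.055 for Spata3, -0.030 for Spata20, -0.055 for Spata21, -0.0016 for Spata18 and -0.0100 for Tex22. With 1 library left out the sign changed for Spata1 (-0.11 to 0.083), Spata16 (-0.16 to 0.13), Spata17 (-0.043 to 0.10), Spata18 (-0.050 to 0.12), Spata20 (-0.0080 to 0.047), Spata21 (-0.036 to 0.044), Spata22 (-0.35 to 0.12), Spata3 (-0.12 to 0.13), Spata5 (-0.19 to 0.018), Tex101 (-0.17 to 0.13), Tex11 (-0.19 to 0.22), Tex15 (-0.37 to 0.14), Tex21 (-0.33 to 0.056), Tex22 (-0.15 to 0.16) and Tex264 (-0.0095 to 0.19). The cause was not tested. Depth limits the low members: the counting error at 1 FPKM was 23.9% in the shallowest library.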
